A study of Mus musculus with 24 samples.

Results

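The genes described here are 32 interferon-stimulated and antigen presentation genes, measured by microarray in the left ventricle of mice. They were listed by name, as genes known to be induced by interferons or to serve MHC class I. The list was chosen with earlier results of these data known. Signal also entered through the filter on background and the choice of the brightest probe per gene. Of the 32 genes, 31 had a probe well above background on at least 6 of the 24 arrays and were kept, among 28237 genes kept in all, and 30 of them were well above background on all 24 arrays. Oas3, an oligoadenylate synthetase, fell below that filter and has no value here. Mx1, a dynamin-like GTPase that blocks influenza viruses, was well above background on 2 mG4H STZ, 1 mG4H VEH, 3 CON STZ and 0 CON VEH arrays, so its signal mostly lay near background and no fold is given for it.

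The series holds 24 male mice, 6 in each of 4 groups, and 1 array per mouse. The tested genotype is mG4H, an inducible transgene for the glucose transporter GLUT4 that is active in cardiomyocytes, and its controls are labelled CON. Mice received streptozotocin (STZ), which kills insulin-producing beta cells, at 55 mg per kg on 5 consecutive days, or the citrate vehicle (VEH). The groups were mG4H STZ, mG4H VEH, CON STZ and CON VEH. In all of them the labels place transgene induction 2 weeks after the injections and harvest 2 weeks after induction. Strain and age are not given in the labels used here. The labels say that each group had siblings in another group, without naming them. A whole ventricle holds many cell types, so fewer cells of one type and less RNA per cell cannot be told apart in any result below. Blood glucose at 4 weeks, in a unit the labels do not state, was 500 to 601 in mG4H STZ and 131 to 152 in mG4H VEH mice, and 600 to 601 in CON STZ and 117 to 164 in CON VEH mice. The probe for Slc2a4, the mouse gene for GLUT4, averaged 6.54 ± 0.11 in mG4H VEH and 6.73 ± 0.15 in CON VEH mice (SD, n = 6 each), on the log2 scale explained below. Under STZ the same probe averaged 6.36 ± 0.43 in mG4H and 6.16 ± 0.31 in CON mice (SD, n = 6 each). It was thus not higher in the vehicle-treated mice labelled mG4H, and whether it detects the RNA of the transgene is not given in the sources used here, so it checks nothing about the genotype labels. All 10 cardiomyocyte markers listed for the tissue check were kept.

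Interferons are cytokines that bind receptors on the cell surface and activate JAK kinases, which phosphorylate STAT proteins. Type I interferons activate a complex with STAT2 and IRF9 that binds the interferon-stimulated response element (ISRE), while interferon gamma acts mainly at gamma-activated sites (GAS) and through IRF1. The genes switched on in this way encode RNA sensors, antiviral effectors, GTPases that attack intracellular pathogens, and the machinery that loads peptides on MHC class I. In the heart such genes are expressed by resident macrophages, endothelial cells and cardiomyocytes, and they are known to rise after infection and injury.

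The promoters of the genes were read from RefSeq (build GRCm38.p6), as 250 bases before and 50 bases after each annotated start. Of the 32 genes, 24 had an entry, with 28 windows, and Oas2, Mx1, Mx2, Usp18, Parp14, Rtp4, Gbp6 and Iigp1 had none. An ISRE-like match was GAAA, any 2 bases and GAAA again, on either strand, and a GAS-like match was TTC, any 3 bases and GAA, which reads the same on both strands. The ISRE-like letters stood in 15 of the 28 windows, from 15 genes, against 3.44% of all 32851 windows in the table, and the GAS-like letters in 5 of 28 windows against 8.30% of all. Matches may overlap each other. They describe the letters in these windows and are no sites.

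The 6 sequences below belong to the genes on which the results turn. Ifit2, Ifit3 and Ifit1 are neighbours on chromosome 19, and Ifit2 was the only member past the threshold. Oasl1 in CON mice and Igtp in mG4H mice had the next smallest p after STZ, and Isg15 is the classical interferon-stimulated gene. The windows end at the base before the annotated start and run 5′ to 3′ on the gene's strand, with ISRE-like and GAS-like matches in capitals. They are chr19:34550444-34550693 on the plus strand for Ifit2 (the upstream of 2 starts), chr19:34583349-34583528 on the plus strand for Ifit3, chr19:34640709-34640888 on the plus strand for Ifit1, chr5:114923060-114923239 on the plus strand for Oasl1, chr11:58199376-58199555 on the plus strand for Igtp and chr4:156200819-156200998 on the minus strand for Isg15.
Ifit2: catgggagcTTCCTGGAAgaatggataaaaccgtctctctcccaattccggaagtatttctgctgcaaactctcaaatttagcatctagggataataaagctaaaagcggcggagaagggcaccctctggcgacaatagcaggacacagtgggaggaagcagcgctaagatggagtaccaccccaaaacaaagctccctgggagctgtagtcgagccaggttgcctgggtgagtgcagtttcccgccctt
Ifit3: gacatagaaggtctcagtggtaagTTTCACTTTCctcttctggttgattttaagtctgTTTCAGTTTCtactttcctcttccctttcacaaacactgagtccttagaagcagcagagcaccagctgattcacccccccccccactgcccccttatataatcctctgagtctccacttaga
Ifit1: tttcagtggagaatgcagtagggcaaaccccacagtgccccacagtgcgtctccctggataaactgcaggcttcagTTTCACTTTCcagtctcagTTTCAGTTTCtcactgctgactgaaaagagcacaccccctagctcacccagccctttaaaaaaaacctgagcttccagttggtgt
Oasl1: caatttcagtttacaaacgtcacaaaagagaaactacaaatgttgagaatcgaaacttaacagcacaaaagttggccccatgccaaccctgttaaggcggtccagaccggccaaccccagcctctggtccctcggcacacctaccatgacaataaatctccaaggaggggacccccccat
Igtp: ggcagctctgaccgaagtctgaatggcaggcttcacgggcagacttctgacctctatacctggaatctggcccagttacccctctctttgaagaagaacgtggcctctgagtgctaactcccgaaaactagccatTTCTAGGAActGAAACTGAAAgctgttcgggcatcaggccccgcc
Isg15: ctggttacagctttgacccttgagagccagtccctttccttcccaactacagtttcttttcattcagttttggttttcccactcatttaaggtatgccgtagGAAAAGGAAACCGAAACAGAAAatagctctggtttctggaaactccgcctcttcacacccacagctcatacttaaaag

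The Ifit2 window holds 1 GAS-like match, at -241 from the start, and no ISRE-like match, and its other start has neither. Ifit3 and Ifit1 each hold 2 ISRE-like matches, and Isg15 holds 3 that overlap. Oasl1 holds no match of either kind. In Igtp a GAS-like and an ISRE-like match lie close together before the start. Elsewhere, Oas1a, Bst2, Irgm1 and Gbp3 hold 2 ISRE-like matches each, and Irf1, a transcription factor induced by interferon gamma, holds a GAS-like match and no ISRE-like one. No match in these windows was found for Oasl2, Ifi44, Xaf1, Irf7, Irf9 or Tap1.

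**Figure D1:**
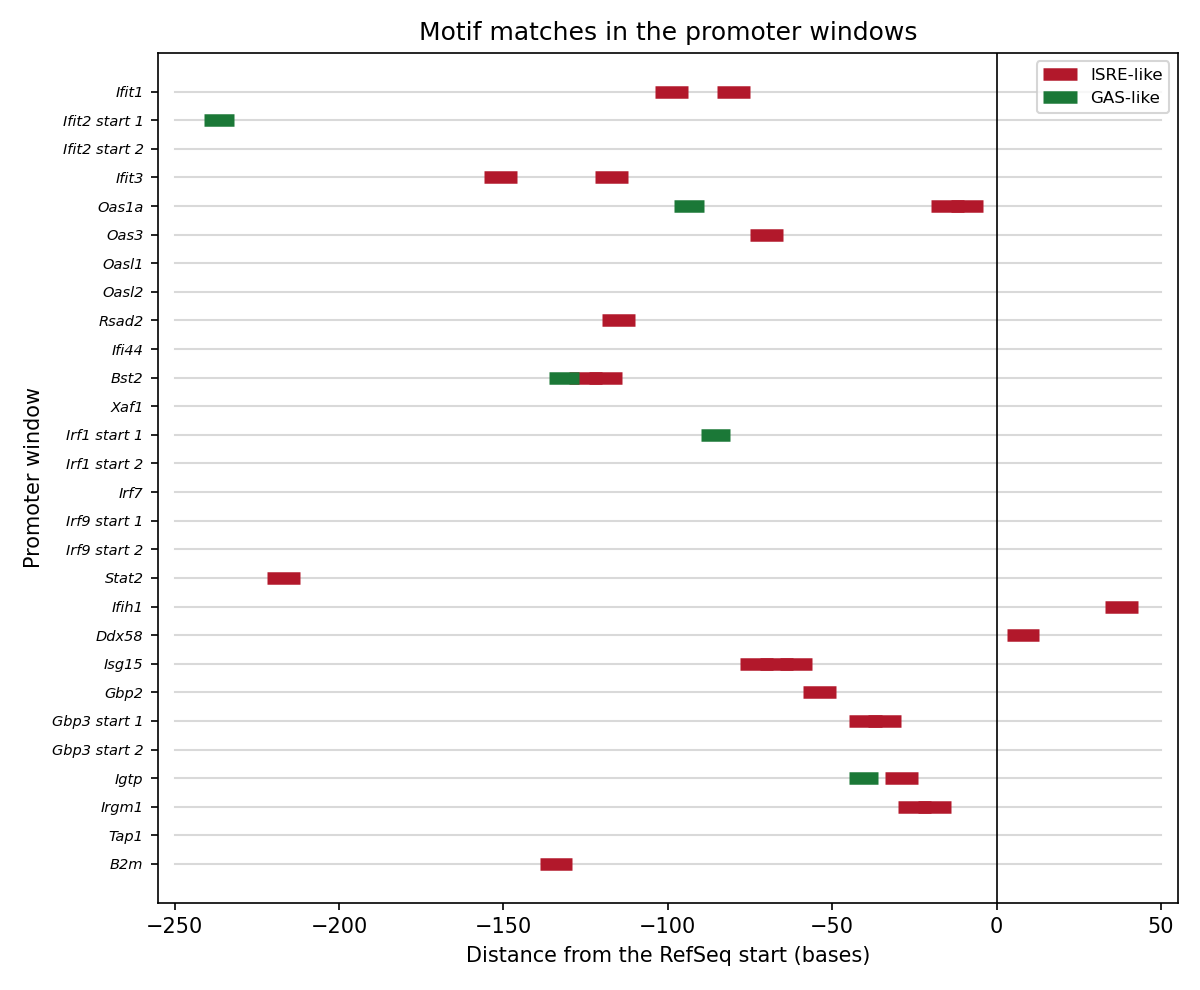
Positions of ISRE-like and GAS-like matches in the 28 promoter windows of 24 genes, with the distance from the RefSeq start in bases on the horizontal axis and 1 grey line per window. ISRE-like matches lie between -222 and 33 bases from the start, and both Ifit2 windows have none.

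Values below are the log2 of the array's processed signal minus the log2 of that array's 75th percentile over gene spots, so 0 is the 75th percentile. Signals of different probes are not on one scale and are not compared between genes. Group differences come from limma fitted to all 28237 genes on all 24 arrays, with p adjusted by Benjamini-Hochberg over all of them and a threshold of 0.05. An error after a fold change is the standard error (SE). The arrays sat on 4 slides. Slides 1 to 3 held all 4 groups, and slide 4, scanned on another day, held 1 mG4H VEH and 1 CON VEH array. Over all genes, 3 arrays stood furthest from the median array, mG4H STZ replicates 3 and 5 and CON STZ replicate 3, with correlations of 0.9795, 0.9829 and 0.9808 to it, whereas no other array was below 0.9885. Medians given for gene groups after STZ, and the results named as resting on these arrays, are also given without them.

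After STZ, 1 of the 31 genes passed the threshold in CON mice, Ifit2, which was higher under STZ, while 3.96% of all genes passed and 1.66% passed as higher. The share of these genes that passed was thus near that of all genes. At an unadjusted p under 0.05 there were 2 of 31, against 14.3% of all genes. The median log2 fold change of the 31 was -0.03, against 0.03 for all genes, and 12 of the 31 lay above 0, against 55.2% of all genes. In mG4H mice 0 of the 31 passed in limma, against 0.266% of all genes, and at an unadjusted p under 0.05 there were 2 higher, against 6.39% of all genes, and 2 lower, against 7.61%. Their median log2 fold change was -0.18, against 0.06 for all genes, with 6 of 31 above 0, against 60.5% of all. Without the 3 arrays that stood apart, the medians of the 31 were 0.02 in mG4H and 0.09 in CON mice, with 17 and 20 of 31 above 0. The 2 comparisons use different mice.

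**Figure D2:**
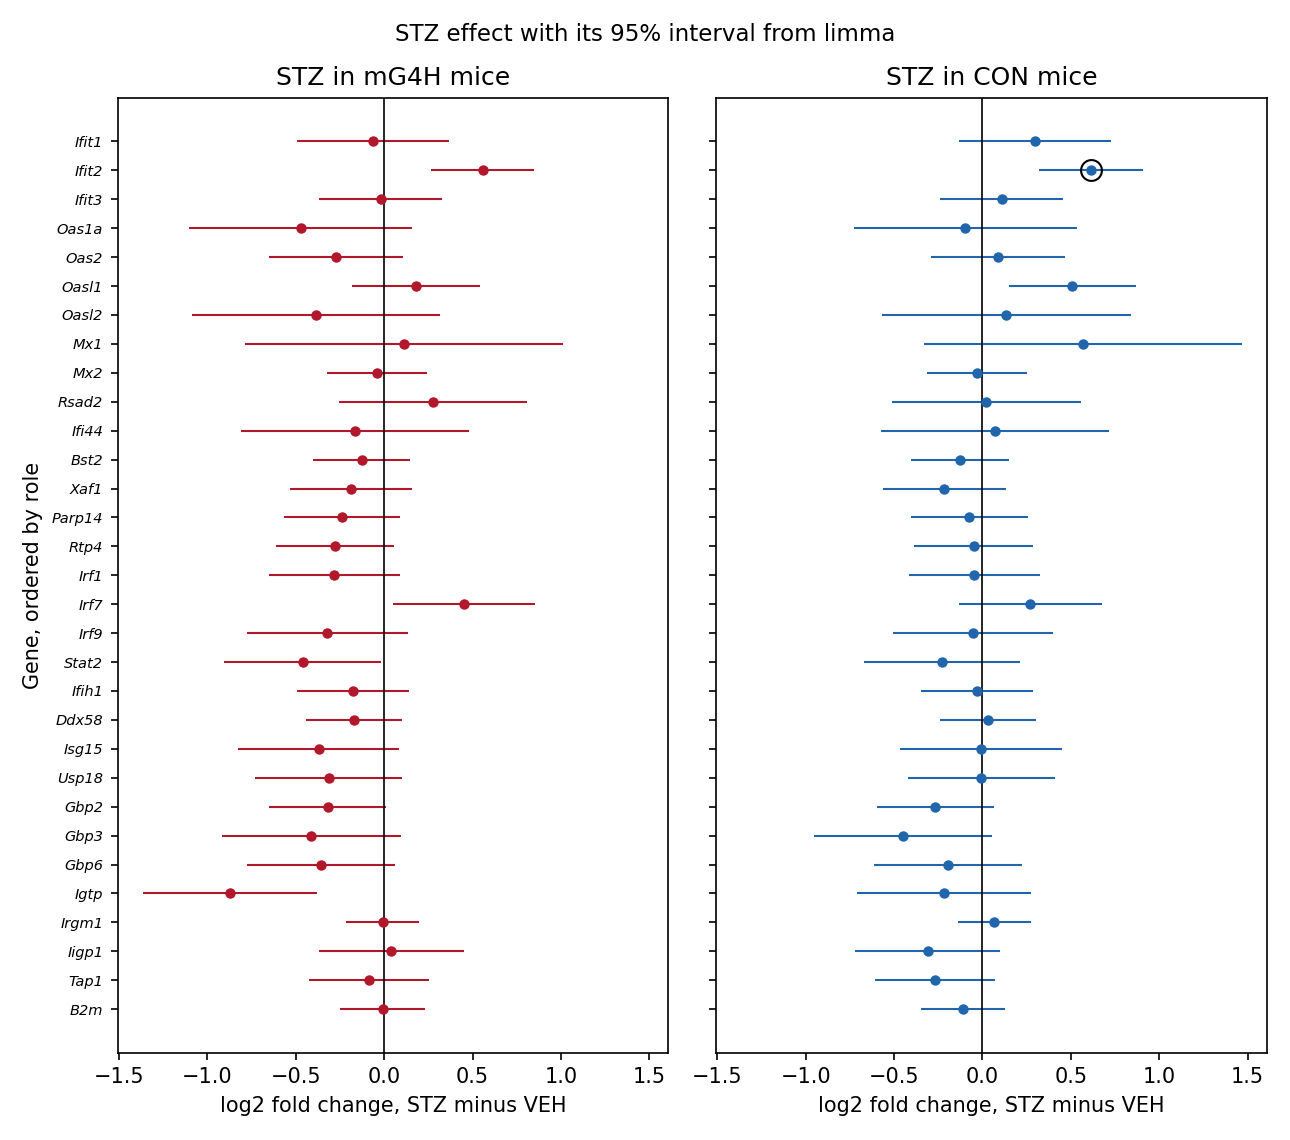
Log2 fold change of each of the 31 genes, STZ minus VEH, in mG4H mice on the left and CON mice on the right, with the 95% interval from limma. The black ring marks Ifit2 in CON mice, the one gene past an adjusted p of 0.05, and the Igtp interval in mG4H mice lies wholly below 0. Mx1 is drawn although its signal mostly lay near background.

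The antiviral effectors were the largest class, with 15 genes kept of 16. In mG4H mice 0 of 15 passed in limma, against 0.266% of all genes, and 1, higher, had an unadjusted p under 0.05, against 6.39% of all genes. In CON mice 1 of 15 passed, a single gene, against 3.96% of all genes. Their median log2 fold change was -0.13 in mG4H and 0.07 in CON mice, and 0.04 and 0.18 without the 3 arrays that stood apart.

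Ifit2 encodes a tetratricopeptide-repeat protein that restricts viral translation and replication. In CON STZ mice its log2 signal had a lowest value of 0.20, a median of 0.32 and a highest of 0.76, against -0.50, -0.30 and 0.29 in CON VEH mice. The groups overlapped through CON VEH replicate 2, the one CON VEH mouse within the STZ range. The log2 fold change was 0.61 ± 0.14 (SE, n = 6 mice per group), a 1.53-fold higher signal with an adjusted p of 0.015 by limma. In mG4H STZ mice the lowest, median and highest values were -0.02, 0.16 and 0.61, against -0.52, -0.38 and -0.04 in mG4H VEH mice. Every mG4H STZ mouse was above every mG4H VEH mouse, a separation in the higher direction that 0.453% of all genes showed. The log2 fold change of 0.56 ± 0.14 in mG4H mice had an adjusted p of 0.090 by limma and did not pass. The difference between the 2 genotypes' STZ effects on Ifit2 was -0.06 ± 0.20 and did not pass. Treatment accounted for 61.0% of the variation of Ifit2 over the 24 mice, against a median of 6.21% over the 31 genes and 4.31% over all genes. That share was the highest of the 31. It comes from the same values as the fold changes, so it is no separate support. Within slides 1, 2 and 3 the STZ difference of Ifit2 was 0.54, 0.48 and 0.74 in mG4H mice and 0.65, 0.23 and 0.69 in CON mice. The call in CON mice was lost with scaling to the array median (log2 fold change 0.58, adjusted p 0.61) and with body weight as a covariate (0.42, adjusted p 0.57). Without mG4H STZ replicate 2, Ifit2 passed in mG4H mice as well (0.61, adjusted p 0.038).

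The neighbours of Ifit2 did not pass. Ifit1, whose protein binds viral RNA with an unmethylated cap, ranged in CON STZ mice from -1.29 to 0.00 around a median of -0.56, against -1.34 to -0.30 around -0.91 in CON VEH mice. Its log2 fold change was -0.06 ± 0.21 in mG4H mice and 0.30 ± 0.21 in CON mice. For Ifit3 the same values were -0.02 ± 0.17 and 0.11 ± 0.17, and the groups overlapped in both genotypes. The probes lie on the plus strand of chromosome 19 of mm9, at chr19:34650244-34650303 for Ifit2, chr19:34663105-34663164 for Ifit3 and chr19:34723796-34723855 for Ifit1. Close copies exist for several of these genes, among them Ifit3, Oas1a, Gbp6 and Iigp1, and how much a probe also binds such a copy was not tested.

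Oasl1, which in mice represses translation of the Irf7 mRNA, had the next smallest p in CON mice. Its lowest, median and highest values were -1.27, -0.60 and -0.13 in CON STZ mice, against -1.39, -1.23 and -0.70 in CON VEH mice. The ranges overlapped, with CON STZ replicate 3 the lowest STZ mouse and CON VEH replicate 2 the highest VEH mouse. The log2 fold change of 0.51 ± 0.17 had an adjusted p of 0.117 by limma, and without CON STZ replicate 3 it was 0.63 with an adjusted p of 0.034. In mG4H mice the difference was 0.18 ± 0.17.

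**Figure D3:**
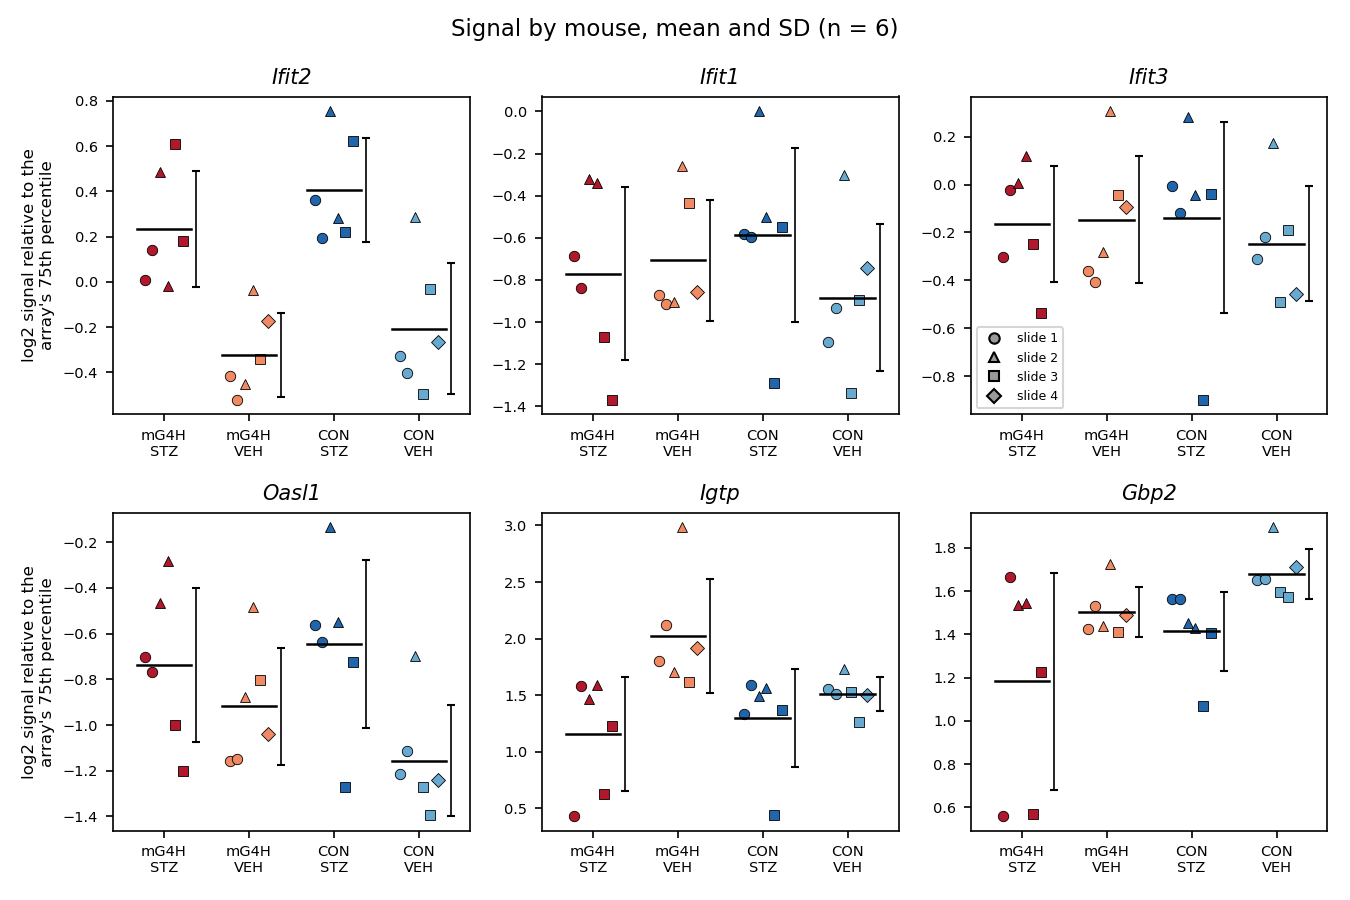
Log2 signal relative to the array's 75th percentile for 6 genes, 1 point per mouse, with the group mean as a line, the SD as a bar beside it, and the slide as the symbol. Ifit2 is higher in both STZ groups, whereas Ifit1 and Ifit3 overlap throughout. In Igtp, all 6 mG4H STZ mice lie below all 6 mG4H VEH mice.

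The other effectors did not pass. Oas1a and Oas2, synthetases of the 2-5A that activates RNase L, had log2 fold changes of -0.47 ± 0.30 and -0.27 ± 0.18 in mG4H mice and of -0.10 ± 0.30 and 0.09 ± 0.18 in CON mice. Oas1a was at -0.78 in mG4H STZ replicate 5, whereas the lowest mG4H VEH mouse had 0.79. The second Oas1a probe gave -0.36 in mG4H and -0.16 in CON mice. Oasl2, another synthetase of 2-5A, spread most of all the 31 genes over the 24 mice, by 2.66 on the log2 scale. Its lowest mouse was mG4H STZ replicate 3 at -2.55, whereas the highest in that group was -0.19. Mx2 differed by -0.04 ± 0.14 in mG4H and -0.03 ± 0.14 in CON mice. Rsad2, the radical SAM enzyme viperin, ranged from 0.36 to 2.94 around 1.45 in mG4H STZ mice, against 1.103 to 1.433 around 1.198 in mG4H VEH mice. Both ends of the Rsad2 range in mG4H STZ mice lay outside the mG4H VEH range, and the mean difference was 0.28 ± 0.26. Ifi44 differed by -0.17 ± 0.31 and 0.07 ± 0.31 in mG4H and CON mice. Bst2 (tetherin, which holds budding virus at the membrane), Xaf1 (a pro-apoptotic partner of XIAP), Parp14 (an ADP-ribosyltransferase) and Rtp4 (a receptor chaperone) lay between -0.28 and -0.13 in mG4H mice and between -0.22 and -0.05 in CON mice. None of these had an unadjusted p under 0.05.

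Of the 4 transcription factors, 0 passed in limma in either genotype, against 0.266% of all genes in mG4H and 3.96% in CON mice. In mG4H mice 1 was higher and 1 lower at an unadjusted p under 0.05, against 6.39% and 7.61% of all genes, and in CON mice 0 reached it. Their median log2 fold change was -0.30 in mG4H and -0.05 in CON mice. Without the 3 arrays that stood apart it was 0.01 and 0.08. Irf7, which drives type I interferon genes, ranged in mG4H STZ mice from -3.02 to -2.15 around -2.63, against -3.23 to -2.91 around -3.01 in mG4H VEH mice. The groups overlapped, and the log2 fold change of 0.45 ± 0.19 had an adjusted p of 0.29. In CON mice it was 0.27 ± 0.19, and CON VEH replicate 2, at -1.67, was higher than every other mouse. Stat2, a subunit of the complex that binds the ISRE, ranged in mG4H STZ mice from 0.01 to 1.64 around 1.41, against 1.44 to 1.78 around 1.48 in mG4H VEH mice. Its log2 fold change of -0.46 ± 0.21 in mG4H mice had an adjusted p of 0.33, and without the 3 arrays that stood apart it was -0.06. Irf9, the DNA-binding partner of STAT2, differed by -0.32 ± 0.22 in mG4H and -0.05 ± 0.22 in CON mice. Irf1 differed by -0.28 ± 0.18 in mG4H and -0.05 ± 0.18 in CON mice.

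The RNA sensors Ifih1 (MDA5) and Ddx58 (RIG-I), which detect viral RNA in the cytosol, differed by -0.18 ± 0.15 and -0.17 ± 0.13 in mG4H mice and by -0.03 ± 0.15 and 0.03 ± 0.13 in CON mice. A second Ddx58 probe gave -0.45 in mG4H and -0.12 in CON mice. Isg15, a ubiquitin-like protein that is attached to other proteins, ranged from 0.58 to 2.11 around 1.30 in mG4H STZ mice, against 1.52 to 2.08 around 1.68 in mG4H VEH mice. The Isg15 groups overlapped, with a log2 fold change of -0.37 ± 0.22 in mG4H and -0.01 ± 0.22 in CON mice. Its second probe gave -0.21 and -0.004. Usp18, the protease that removes ISG15 and dampens the type I receptor, differed by -0.31 ± 0.20 and -0.01 ± 0.20 in mG4H and CON mice. None of these 4 genes passed the threshold. The median log2 fold change of the 2 sensors was -0.17 in mG4H and -0.001 in CON mice. Without the 3 arrays that stood apart it was 0.03 and 0.09. For Isg15 and Usp18 the medians were -0.34 and -0.01, and -0.09 and 0.12 without those arrays.

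The 6 interferon-induced GTPases had median log2 fold changes after STZ of -0.34 in mG4H and -0.24 in CON mice, and -0.05 and -0.14 without the 3 arrays that stood apart. In each genotype 5 of 6 lay below 0, against 39.5% of all genes in mG4H and 44.8% in CON mice. Of the 6, 0 passed in limma in either genotype, against 0.266% and 3.96% of all genes, and 1 in mG4H and 0 in CON mice had an unadjusted p under 0.05. Igtp (Irgm3), an immunity-related GTPase of lipid droplets and the endoplasmic reticulum, had the largest difference in mG4H mice. It had values of 0.43, 1.35 and 1.59 (lowest, median and highest) in mG4H STZ mice, against 1.62, 1.86 and 2.98 in mG4H VEH mice. All mG4H STZ mice lay below all mG4H VEH mice, as they did in this direction for 1.22% of all genes. The log2 fold change of -0.87 ± 0.24 had an adjusted p of 0.107 by limma, reached 0.047 without mG4H STZ replicate 2, and was -0.56 with an adjusted p of 0.34 without the 3 arrays that stood apart. Within slides 1, 2 and 3 the difference was -0.96, -0.82 and -0.69. In CON mice Igtp differed by -0.22 ± 0.24, and the difference between the genotypes' STZ effects, -0.65 ± 0.34, did not pass. Gbp2, a guanylate-binding protein recruited to vacuoles of pathogens, was at 1.07 to 1.57 around 1.44 in CON STZ mice, against 1.57 to 1.90 around 1.65 in CON VEH mice. All CON STZ mice were below all CON VEH mice, as for 2.67% of all genes, and it was the one gene of the 31 so separated in CON mice, 0 being separated as higher against 1.91% of all genes, but the log2 fold change of -0.27 ± 0.16 did not pass (adjusted p 0.54 by limma). In mG4H mice the Gbp2 groups overlapped at -0.32 ± 0.16. Gbp3 differed by -0.41 ± 0.24 in mG4H and -0.45 ± 0.24 in CON mice, and Gbp6 by -0.36 ± 0.20 and -0.19 ± 0.20. Irgm1, a regulator of the other immunity-related GTPases, had the smallest spread within groups of the 31 genes, 0.16 on the log2 scale, and differed by -0.01 ± 0.10 in mG4H and 0.07 ± 0.10 in CON mice. Iigp1, which damages the vacuole of Toxoplasma, differed by 0.04 ± 0.20 and -0.31 ± 0.20.

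Of the antigen presentation genes, Tap1, a subunit of the peptide transporter, differed by -0.09 ± 0.16 in mG4H and -0.27 ± 0.16 in CON mice. B2m, the light chain of MHC class I, ranged from 4.51 to 5.17 around 4.63 in mG4H STZ mice, against 4.65 to 4.92 around 4.76 in mG4H VEH mice, and differed by -0.01 ± 0.12. In CON mice it ranged from 4.43 to 5.01 around 4.92 under STZ, against 4.87 to 4.99 around 4.95 under VEH, a difference of -0.11 ± 0.12. Over the 24 mice B2m had the narrowest range of the 31 genes, 0.74 on the log2 scale. The median log2 fold change of Tap1 and B2m was -0.05 in mG4H and -0.19 in CON mice. Without the 3 arrays that stood apart it was 0.08 and -0.11.

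The comparison of genotypes asked whether the GLUT4 transgene altered these genes. Under VEH 0 of the 31 genes passed in limma, against 0.0815% of all genes, and 1 had an unadjusted p under 0.05, against 2.87% of all genes. That gene was Igtp, at 1.62, 1.86 and 2.98 (lowest, median and highest) in mG4H VEH mice, against 1.26, 1.52 and 1.73 in CON VEH mice, a log2 fold change of 0.51 ± 0.24. The median over the 31 was 0.04, against -0.01 for all genes, with 17 of 31 above 0, against 47.3% of all genes. Under STZ 0 of 31 passed, against 0.0106% of all genes, and 1 had an unadjusted p under 0.05, against 3.55% of all genes. That gene was Iigp1, at -0.44, 0.09 and 0.36 in mG4H STZ mice, against -0.73, -0.50 and -0.12 in CON STZ mice. Its log2 fold change was 0.49 ± 0.20, the ranges overlapped, and its second probe gave 0.39. The median over the 31 under STZ was -0.16, against 0.01 for all genes, with 5 of 31 above 0, against 54.2% of all genes. Without the 3 arrays that stood apart that median was -0.05, with 10 of 31 above 0, against 16981 of all 28237 genes. The STZ effect differed between genotypes for 0 of 31 genes in limma, as for 0.00% of all genes, and 0 of 31 had an unadjusted p under 0.05, against 1.77% of all genes. It lay above 0 for 8 of 31, against 55.0% of all genes, with a median of -0.165. Without the 3 arrays that stood apart it lay above 0 for 11 of 31, against 16562 of all 28237 genes. The median of the 31 was then -0.071.

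Much of the variation lay between mice of one group, as it did for all genes. Group membership accounted for a median of 12.8% of a gene's variation over the 24 mice, while the slide accounted for a median of 36.1%, against 10.7% and 30.6% over all genes. Ifit2 had the largest share between groups, 64.9%, against 15.4% between slides. For Igtp (42.1%), Gbp2 (33.1%), Irf7 (32.5%) and Iigp1 (26.4%) the group share was also above the slide share. Among slides 1 to 3, slide 2 had the highest mean for 30 of the 31 genes, against 16.95% of all genes, and slide 3 had the lowest for 26 of 31, against 31.05% of all genes. Averaged over the 31 genes after centring each, the 7 mice of slide 2 lay between -0.04 and 0.40, with 6 above 0, and the 7 mice of slide 3 between -0.57 and 0.06, with 6 below 0. With slide as a block in the fit, Ifit2 had a log2 fold change of 0.56 in mG4H mice (adjusted p 0.084) and 0.60 in CON mice (adjusted p 0.013), and Oasl1 passed in CON mice (0.43, adjusted p 0.039).

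**Figure D4:**
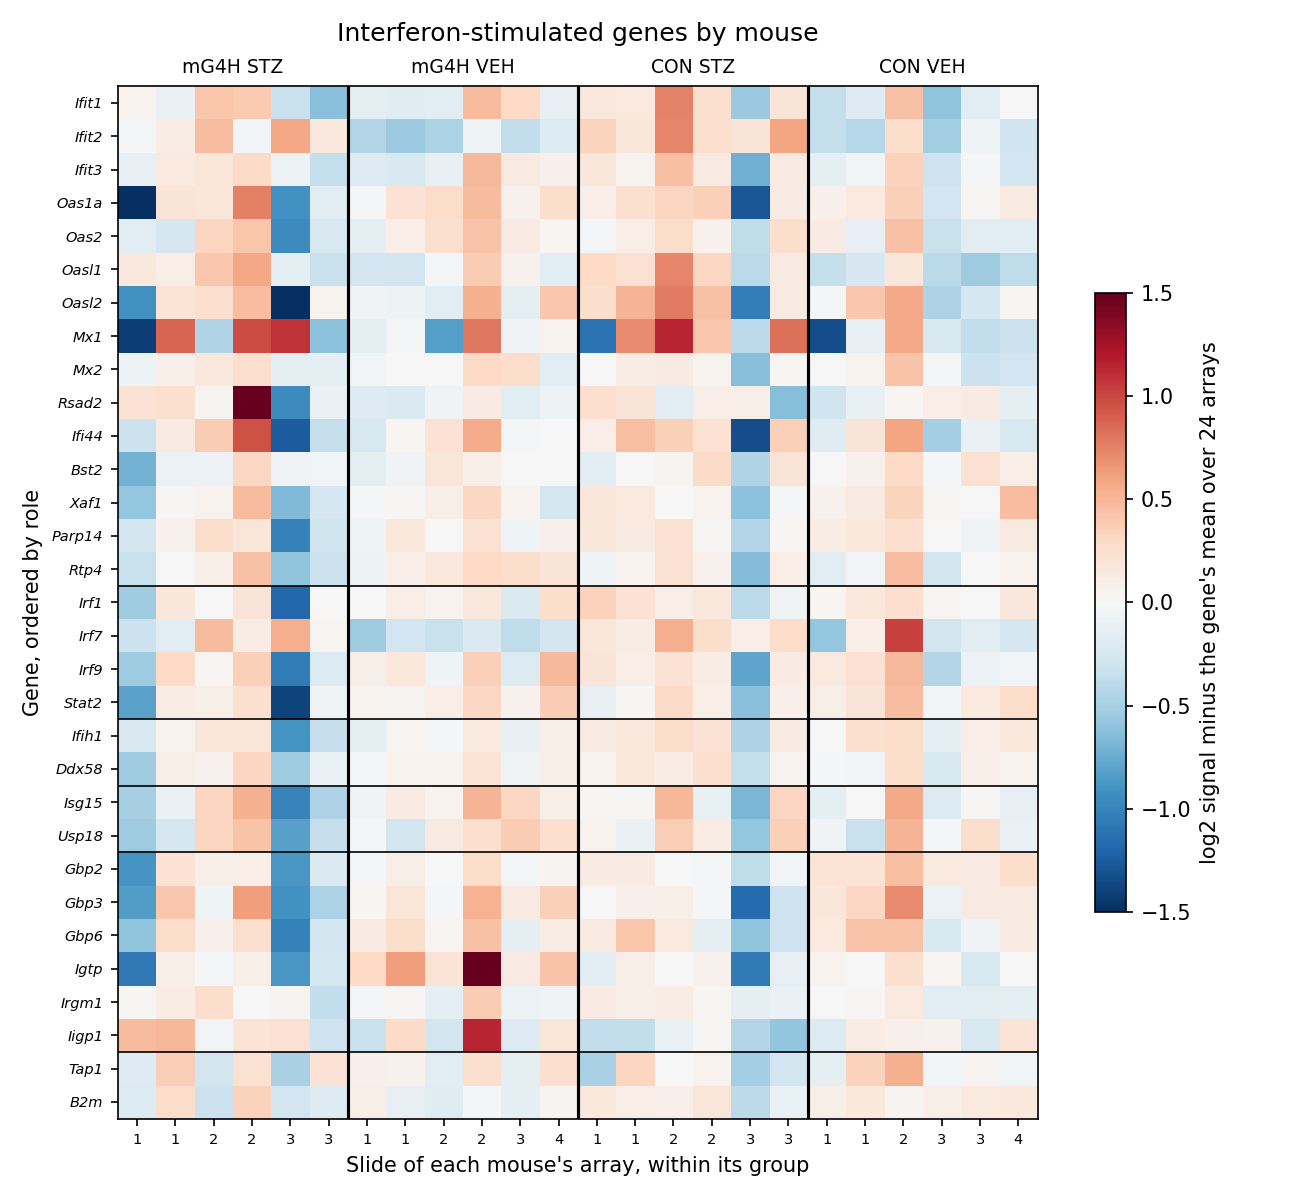
Log2 signal of the 31 genes, each minus its mean over 24 arrays, in 24 mice. Columns are mice, grouped from left to right as mG4H STZ, mG4H VEH, CON STZ and CON VEH, with the slide number below each, and colours stop at 1.5 in either direction. Columns of slide 2 are mostly red and several of slide 3 mostly blue, and Ifit2 is red in mG4H STZ replicate 3, where most other genes are blue.

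Single mice were high or low across the list. The 3 arrays that stood apart held the lowest of the 24 values for 25 of the 31 genes, against 26.6% of all genes: mG4H STZ replicate 3 for 12, CON STZ replicate 3 for 7 and mG4H STZ replicate 5 for 6. The highest values were held by CON VEH replicate 2 for 11 genes, mG4H STZ replicate 2 for 7, CON STZ replicate 1 for 6 and mG4H VEH replicate 6 for 5. All of these high arrays were on slide 2. Of the arrays that stood apart, mG4H STZ replicate 3 and CON STZ replicate 3 were on slide 3 and mG4H STZ replicate 5 on slide 1. Mouse and slide cannot be told apart in these extremes. Averaged over the list, mG4H STZ mice spanned -0.57 to 0.40 and mG4H VEH mice -0.08 to 0.37, and CON STZ mice -0.55 to 0.28 and CON VEH mice -0.18 to 0.39, so all groups overlapped. Ifit2 was at its group's highest, 0.61, in mG4H STZ replicate 3, the mouse with the lowest average over the list, and in none of the 3 arrays that stood apart was it the lowest of its group.

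The wider pathway was examined through lists of other genes, chosen with results of these data known. The counts below stand against 3.96% of all genes called in CON mice and 0.266% in mG4H mice, and 1 call in a list is a single gene. Of 10 ligand and receptor genes kept, 1 passed in CON mice: Ifngr2, a chain of the interferon gamma receptor, was at 3.95 to 4.59 in CON STZ mice, against 4.90 to 5.07 in CON VEH mice, with a log2 fold change of -0.60 ± 0.13 (adjusted p 0.011 by limma). The groups did not overlap, as for 2.67% of all genes in this direction. In mG4H mice Ifngr2 differed by -0.53 ± 0.13 and did not pass (adjusted p 0.083). Of 15 nucleic acid sensors and adaptors, 1 passed in CON mice, Myd88, the adaptor of most Toll-like receptors, at 1.14 to 1.33 in CON STZ against 0.71 to 0.97 in CON VEH mice (log2 fold change 0.41 ± 0.07, adjusted p 0.0017). In mG4H mice it differed by 0.32 ± 0.07 (adjusted p 0.053). Of 29 other interferon-stimulated genes, 1 passed in CON mice, Ifitm1, a membrane protein that hinders virus entry, at 0.46 to 1.80 in CON STZ against -0.35 to -0.10 in CON VEH mice (log2 fold change 1.12 ± 0.28, adjusted p 0.025). In mG4H mice it differed by 1.19 ± 0.28 (adjusted p 0.068). Of these lists 0 genes passed in mG4H mice in limma. Without the 3 arrays that stood apart, Ifngr2, Myd88 and Ifitm1 still passed in CON mice, with log2 fold changes of -0.51, 0.40 and 0.95. The 3 lists then held 2, 2 and 5 calls in CON mice, while the calls over all genes numbered 2366.

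No gene of 11 in the JAK-STAT list, 10 further interferon-induced GTPases, 5 chemokines, 20 further MHC class I genes or 10 MHC class II genes passed in limma in either genotype after STZ. Counts at an unadjusted p under 0.05 in mG4H mice were 2, 1, 3, 6 and 6 in that order, and in CON mice 2, 1, 0, 5 and 3, against 14% and 14.3% of all genes. The median log2 fold changes in mG4H and CON mice were 0.17 and 0.14 for the JAK-STAT list, -0.36 and -0.35 for the GTPases and -0.88 and -0.32 for the chemokines. They were -0.04 and -0.06 for MHC class I and -0.63 and -0.52 for MHC class II, whose proteins present extracellular antigen to helper T cells. The mice with the lowest averages over the 31 genes were also low in MHC class II: mG4H STZ replicates 3 and 5 averaged -1.04 and -1.32 over that list and CON STZ replicate 3 averaged -0.96, whereas the 12 VEH mice lay between 0.04 and 0.65 and the other 9 STZ mice between -0.31 and 0.31. Without these 3 arrays the MHC class II median was -0.14 in mG4H and -0.31 in CON mice, with 0 and 4 of 10 called. Of all 28237 genes, 23 were called in mG4H and 2366 in CON mice in that fit. The chemokine median was then -0.51 and -0.24, with 0 and 1 of 5 called, that of the further GTPases -0.01 and -0.19, with 0 and 1 of 10 called, that of MHC class I 0.03 and 0.01, with 0 called in either, and that of the JAK-STAT list 0.07 and 0.16, with 0 and 2 of 11 called.

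**Figure D5:**
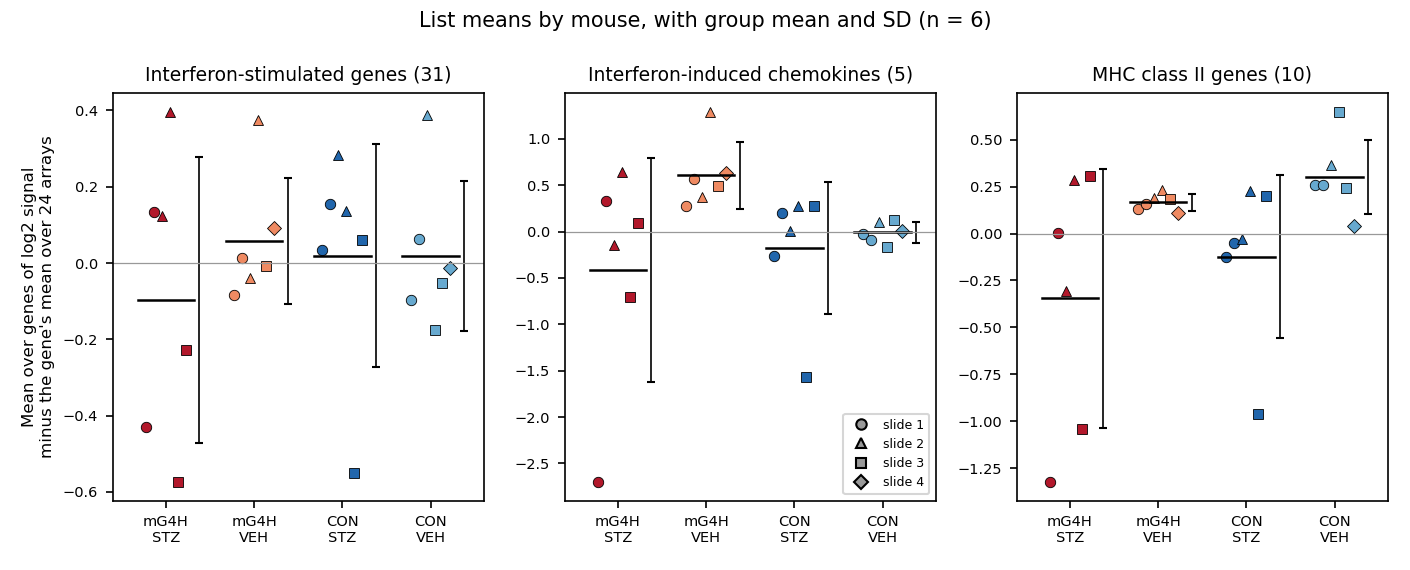
Mean over each list of the log2 signal minus the gene's mean over 24 arrays, 1 point per mouse, with group mean, SD and slide symbol, for the 31 interferon-stimulated genes, 5 chemokines and 10 MHC class II genes. The 3 low STZ mice stand below 0 in each panel, and the 6 mG4H VEH mice stand above the 6 CON VEH mice for the chemokines.

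Markers of other cell types are given beside these results. Of 6 B cell, 7 dendritic cell and 8 endothelial markers, 0 passed in limma after STZ in either genotype, with or without the 3 arrays. Their median log2 fold changes were -0.118, 0.041 and -0.008 in mG4H mice and -0.189, -0.011 and -0.045 in CON mice. Without the 3 arrays they were -0.121, 0.001 and 0.024 in mG4H mice and -0.332, -0.09 and -0.039 in CON mice. Of 13 macrophage and monocyte markers, 9 lay above 0 after STZ in mG4H mice and 12 in CON mice, against 60.5% and 55.2% of all genes, and 1 passed, Itgam (CD11b) in CON mice, with a log2 fold change of 0.48 ± 0.11 (adjusted p 0.015 by limma). The array holds 3 probes for Itgam, and the brightest was used. The log2 of the summed signal of the 13 markers was 5.96 to 6.46 in mG4H STZ and 5.81 to 6.06 in mG4H VEH mice, and 6.15 to 6.54 in CON STZ and 5.89 to 6.07 in CON VEH mice. That sum gives most weight to the brightest probes. With each gene centred and weighted equally, the average was -0.57 to 0.44 in mG4H STZ and -0.36 to 0.08 in mG4H VEH mice. It was -0.54 to 0.73 in CON STZ and -0.21 to 0.06 in CON VEH mice, so these groups overlapped. Of 11 T and NK cell markers, 8 lay below 0 after STZ in mG4H and 9 in CON mice, against 39.5% and 44.8% of all genes. Leaving out the 3 arrays that stood apart, 5 lay below 0 in mG4H and 10 in CON mice. Of all 28237 genes, 11759 and 15281 did so in that fit. Of 6 neutrophil markers 4 and 6 lay above 0, of 6 fibroblast markers 3 and 6, and of 6 adipocyte markers 4 and 6, with 0 of these 4 lists' genes passing in limma and, at an unadjusted p under 0.05, 3 in mG4H and 6 in CON mice. Without the 3 arrays that stood apart, 2366 of all 28237 genes passed in CON mice and 23 in mG4H mice. In that fit 6 of 13 macrophage, 4 of 6 fibroblast and 1 of 6 adipocyte markers passed in CON mice and 0 of these in mG4H mice. Their part in the Ifit2 result was not tested. Nppa, from the list of atrial markers, passed in both genotypes (log2 fold change 2.00 ± 0.43 in mG4H and 2.36 ± 0.43 in CON mice, adjusted p 0.049 and 0.0029, and in mG4H mice 1.69 with 0.067 without the 3 arrays), and 0 of 10 cardiomyocyte markers passed. The other 4 atrial markers did not pass in either genotype. Of the 5, 3 lay below 0 in mG4H and 2 in CON mice, with median log2 fold changes of -0.96 and 0.06. Without the 3 arrays that stood apart these medians were -0.805 and -0.077.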

How the data were processed

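RNA of the left ventricle of 24 mice was hybridised to Agilent 1-colour arrays, 1 per mouse. The deposited scanner files hold intensity per spot, made with Agilent Feature Extraction 10.5.1.1, per the file headers; the processed signal used here is already background-corrected by that program. The submitters' processing notes also name limma. From the processed signal, log2 was taken and each array's log2 75th percentile over gene spots subtracted, control spots and outlier spots were left out, and spots of a probe were averaged. Probes well above background on at least 6 of 24 arrays were kept (39769 of 55681), and the brightest kept probe stood for its gene. limma 3.58.1 in R 4.3.3 was fitted to 28237 genes with 4 group means and 5 contrasts: STZ in each genotype, mG4H under each treatment, and the difference of the STZ effects, with Benjamini-Hochberg adjustment over all genes and a threshold of 0.05. The fit was tested on simulated data with independent errors for each gene and mouse. Those data held no slide effect and no arrays standing apart, so the test does not cover these. P-values set each group difference against the spread within groups. In the main fit that spread includes differences between slides, and sibling relations were not modelled.

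The members and the other gene lists were chosen with earlier results of these data known. All members are named, and of each other list the genes past the threshold; the chemokines named in the closing section were chosen after their values were seen. Replicate numbers were not treated as pairs. Alternatives covered scaling, background correction, the filter, the probe rule, slide, body weight, array weights and leaving out each mouse. The precision is limited by the number of arrays. Promoter windows are from RefSeq, build GRCm38.p6.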

Additional observations from a re-analysis of the deposited data

Results flagged for a closer look

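The 120 gene-by-group sets with all 6 arrays well above background were checked for single distant mice, which leaves out Mx1. Chance puts 1 mouse further from its nearest neighbour than Dixon's 95% critical share of the group's range in about 1 in 20 groups. In 17 of the 120 sets 1 mouse lay that far out. In 14 of the 17 that mouse was CON STZ replicate 3, and it was low. Among effectors it had log2 signals of -0.898 for Ifit3, -0.471 for Oas1a, -1.702 for Oasl2, -2.222 for Mx2, -2.685 for Ifi44, -0.202 for Xaf1, 1.831 for Parp14 and 1.837 for Rtp4. It was also at 1.078 for Irf9, -0.153 for Ifih1 and 0.734 for Ddx58. Among GTPases it was at 1.07 for Gbp2, -0.162 for Gbp3 and 0.435 for Igtp. Those genes share 1 array, so the 14 are not separate events. In the other 3 sets a mouse was high: mG4H VEH replicate 6 at 2.985 for Igtp and 1.907 for Irgm1, and CON VEH replicate 2 at 2.139 for Isg15. The STZ effect differed between genotypes for 0 of the 31 genes in limma, with 0 at an unadjusted p under 0.05.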

How the results depend on the processing

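Over 38 alternatives Ifit2 kept a positive log2 fold change for STZ in CON mice, 0.42 to 0.71, with adjusted p from 0.0058 to 0.61. It no longer passed with scaling to the array median (0.58, adjusted p 0.61) or body weight as a covariate (0.42, adjusted p 0.57). Body weight, in a unit not stated, was 21.1 to 28.1 in mG4H STZ and 25.5 to 31.2 in mG4H VEH mice, and 21.8 to 27.8 in CON STZ and 27.9 to 36.4 in CON VEH mice. The count of genes called among the 31 was then 0 under both settings, against 1, and was 2 (Ifit2 and Oasl1) with slide as a block, with array weights, and without the 3 arrays that stood apart; the last, like leaving out slide 4, was chosen after seeing the data. Leaving out each mouse gave 1 to 2 in CON mice and 0 to 2 in mG4H mice, where Ifit2 and Igtp passed without mG4H STZ replicate 2. In the other 3 contrasts the count was 0 under every alternative run. Over all genes, STZ in CON mice gave 1117 calls, 69 with median scaling, 168 with body weight, 2497 with array weights, 2366 without the 3 arrays and 642 without slide 4. STZ in mG4H mice gave 75 over all genes, 627 without mG4H STZ replicate 2 and 23 without the 3 arrays. With the replicate number as a block, Ifit2 in CON mice had a log2 fold change of 0.61 (adjusted p 0.036), with 1 of the 31 called there and 0 in each other contrast; the numbers are not stated to pair mice, 11 of 24 same-numbered pairs had deviations that correlated over 0.1, and 5 mice correlated best with their own number. The cause of these changes was not tested. Mx1 and Oas3 were limited by signal near background.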

Other observations

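The interferon-induced chemokines, which recruit T cells and monocytes, were described above mainly after STZ. In mG4H VEH mice their list average lay between 0.27 and 1.29, against -0.16 to 0.12 in CON VEH mice, and every mG4H VEH mouse was above every CON VEH mouse. How often the averages of other lists separate in this way was not tested. Taken singly, 1 of the 5 genes was separated in this direction, against 0.4% of all genes. All 5 genes had a log2 fold change above 0, against 47.3% of all genes, with a median of 0.60. In limma 0 of 5 passed, and 1 had an unadjusted p under 0.05, against 2.87% of all genes. Ccl5, Cxcl9, Cxcl10, Ccl7 and Cxcl11, named after their values were seen, differed by 0.60 ± 0.26, 0.80 ± 0.53, 1.18 ± 0.68, 0.42 ± 0.93 and 0.06 ± 0.08 (SE, n = 6 mice per group). After STZ in mG4H mice the same genes differed by -0.88 ± 0.26, -1.95 ± 0.53, -1.79 ± 0.68, -0.44 ± 0.93 and -0.03 ± 0.08, and 0 of 5 passed. The list average was -2.70 in mG4H STZ replicate 5 and -0.70 in replicate 3, arrays that stood apart, and -0.15 to 0.64 in the other 4 mG4H STZ mice. Without the 3 arrays that stood apart the STZ differences in mG4H mice were -0.51, -1.03, -1.17, 0.94 and -0.11, so that of Ccl7 changed sign. Of the MHC class II genes, 10 of 10 lay below 0 in mG4H against CON mice under VEH (median -0.11), against 52.7% of all genes, and under STZ (median -0.21), against 45.8%, with 0 passing in limma. Under STZ, without those arrays, 3 of 10 lay below 0 and the median was 0.05.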
